A study of Mus musculus with 6 samples.

Results

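Calb1, Septin4, Slc4a3, Megf10, Megf11 and Slc32a1 are genes that horizontal cells, the lateral interneurons of the outer retina, use as effectors or that mark these cells. They were followed here on arrays of adult mouse retina through every probe set annotated to 1 of them alone, which gave 15 of the 45037 probe sets left after the controls were set aside, for 6 of 18193 genes. A probe set is a group of short oligonucleotides that together report 1 transcript. The samples were 3 retinas labelled OC2-KO, from mice with a germline null allele of Onecut2, and 3 labelled OC2-WT, from wildtype littermates. All were untreated adults, and neither labels nor methods give the age in days of these mice. Each RNA sample had its own Affymetrix array, and levels are given as log2 intensity. The comparison asks whether the transcripts of these cells are at other levels in the mature retina without this transcription factor.

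Horizontal cells contact the terminals of rods and cones, sum light signals over a wide area and return an inhibitory signal to the photoreceptors. They are few in the mouse retina, and their formation depends on factors such as Ptf1a, Prox1, Lhx1 and the Onecut proteins. Calbindin, the product of Calb1, is the classical antibody marker of these cells. The 6 genes are not used by horizontal cells alone: Calb1 and Slc32a1 are also transcribed in amacrine cells, the inhibitory interneurons of the inner retina, and Megf10 in starburst amacrine cells. In whole retina, fewer cells of a type and less RNA per cell cannot be told apart.

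Promoter windows in RefSeq assembly GRCm38.p6, from 250 bases before to 50 bases after an annotated start, were held for 3 of the 6 genes. The windows printed here belong to Septin4, which has several starts, and to Slc4a3, whose probe sets gave unlike readings. Capitals mark a match to a searched motif.
Septin4, chr11:87566439-87566738, plus strand: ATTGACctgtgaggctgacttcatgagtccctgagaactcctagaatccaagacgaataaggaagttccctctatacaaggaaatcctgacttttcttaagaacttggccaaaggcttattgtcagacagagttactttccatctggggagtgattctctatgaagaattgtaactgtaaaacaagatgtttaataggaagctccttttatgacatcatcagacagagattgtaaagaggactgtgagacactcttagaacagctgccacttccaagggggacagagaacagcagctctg
Septin4, chr11:87580811-87581110, plus strand: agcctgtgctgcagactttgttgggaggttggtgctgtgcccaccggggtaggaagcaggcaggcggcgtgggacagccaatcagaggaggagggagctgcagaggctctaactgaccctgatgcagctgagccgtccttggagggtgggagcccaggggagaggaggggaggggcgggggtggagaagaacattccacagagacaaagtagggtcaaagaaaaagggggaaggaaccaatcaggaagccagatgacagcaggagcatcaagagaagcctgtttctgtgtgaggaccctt
Slc4a3, chr1:75546212-75546511, plus strand: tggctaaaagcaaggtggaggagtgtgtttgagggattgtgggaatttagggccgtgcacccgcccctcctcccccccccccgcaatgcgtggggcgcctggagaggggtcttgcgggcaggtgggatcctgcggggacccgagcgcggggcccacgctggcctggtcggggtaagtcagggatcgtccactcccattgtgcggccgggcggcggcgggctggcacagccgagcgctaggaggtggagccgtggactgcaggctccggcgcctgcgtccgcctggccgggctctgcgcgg

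The motifs were short forms of the site bound by Onecut proteins and a core bound by LIM homeodomain factors such as Lhx1, searched on both strands. Of all 32851 windows, 7.54% held the Onecut form ATCAAT. The Onecut form GTCAAT was found in 6.27% of them. A further Onecut form, ATCGAT, was found in 0.925% of them. The homeodomain core TAATTA was found in 5.29% of them. The first Septin4 window held 1 match, which reads ATTGAC on the plus strand and is GTCAAT on the other, beginning at position -250. The other 3 Septin4 windows, of which 2 overlap each other, and the windows of Slc4a3 and Slc32a1 held none of these letters. The GC content was 42.3% in the first Septin4 window and 71.7% in that of Slc4a3.

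The arrays were checked before the genes were compared. The 3 Onecut2 probe sets were higher on every OC2-KO array, with log2 differences of 2.27 to 2.84. The study places the array's Onecut2 sequences at the 3' end of the gene, so they were not taken as a check of the labels. By its account quantitative PCR hardly detected the 5' coding sequence in the knockout, and staining showed no Onecut2 protein. It proposes that the leftover sequence is raised as RNA without yielding functional protein. Arrays that share a replicate number deviated together and are called pairs. Levels of Xist and Ddx3y were those of males on the arrays of pair 1 and of females on those of pair 2, and in pair 3 the sexes differed, with a female OC2-WT and a male OC2-KO retina. The log2 difference between 3' and 5' probe sets of Actb, which grows as RNA breaks down, was 2.95 and 3.39 in pair 3 and 0.71 to 1.41 on the remaining arrays. For Gapdh this difference was 1.04 and 1.29 in pair 3 and -0.48 to -0.29 on the remaining arrays. Sag, the rod arrestin, read 14.74 to 16.52. Nothing in the labels says that every array came from another animal, and p-values therefore cover the spread among these arrays, part of which may be technical.

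On their brightest probe sets Calb1 was 1.69-fold and Septin4 1.49-fold lower in OC2-KO, without overlap between genotypes, while Slc4a3, Megf10, Megf11 and Slc32a1 differed by less than the spread of their arrays. None of the 6 genes passed adjustment: in limma the adjusted p was 1.00 for each probe set tested, and 0% of the 21176 probe sets tested passed anywhere on the array. The mean was lower in OC2-KO for 14 of the 15 probe sets, where 50.1% of all probe sets were lower. It was lower in 3 of 3 pairs for 11 of the 15, against 11.5% of all. All OC2-KO arrays lay below all OC2-WT arrays for 6 of the 15, namely 3 of Calb1 and 1 each of Septin4, Slc4a3 and Slc32a1, against 2.18% of all. Several probe sets read the same transcript, so these counts rest on 6 genes.

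A probe set was tested if its mean in at least 1 genotype was above 7 on the log2 scale, which 11 of the 15 did. Calb1 1456934_at and 1448738_at and Slc4a3 1453687_at passed through OC2-WT alone and so had to be lower in OC2-KO. The 11 therefore give no independent count. All 11 were lower on average (51.9% of the probe sets tested), 8 were lower in 3 of 3 pairs (12.4%), and 5 showed no overlap (1.56%). At an unadjusted p of 0.05 limma counted 4 of them, 3 of Calb1 and 1 of Septin4, all lower, where 0.326% of the probe sets tested were lower at that level and 0.987% passed in either direction. The methods' t-test counted 2, Calb1 1417504_at and Septin4 1448729_a_at, where 0.604% of the probe sets tested were lower at that level. Calb1 and Septin4 had been singled out by the study on these same arrays, so their direction is not independent evidence.

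**Figure D1:**
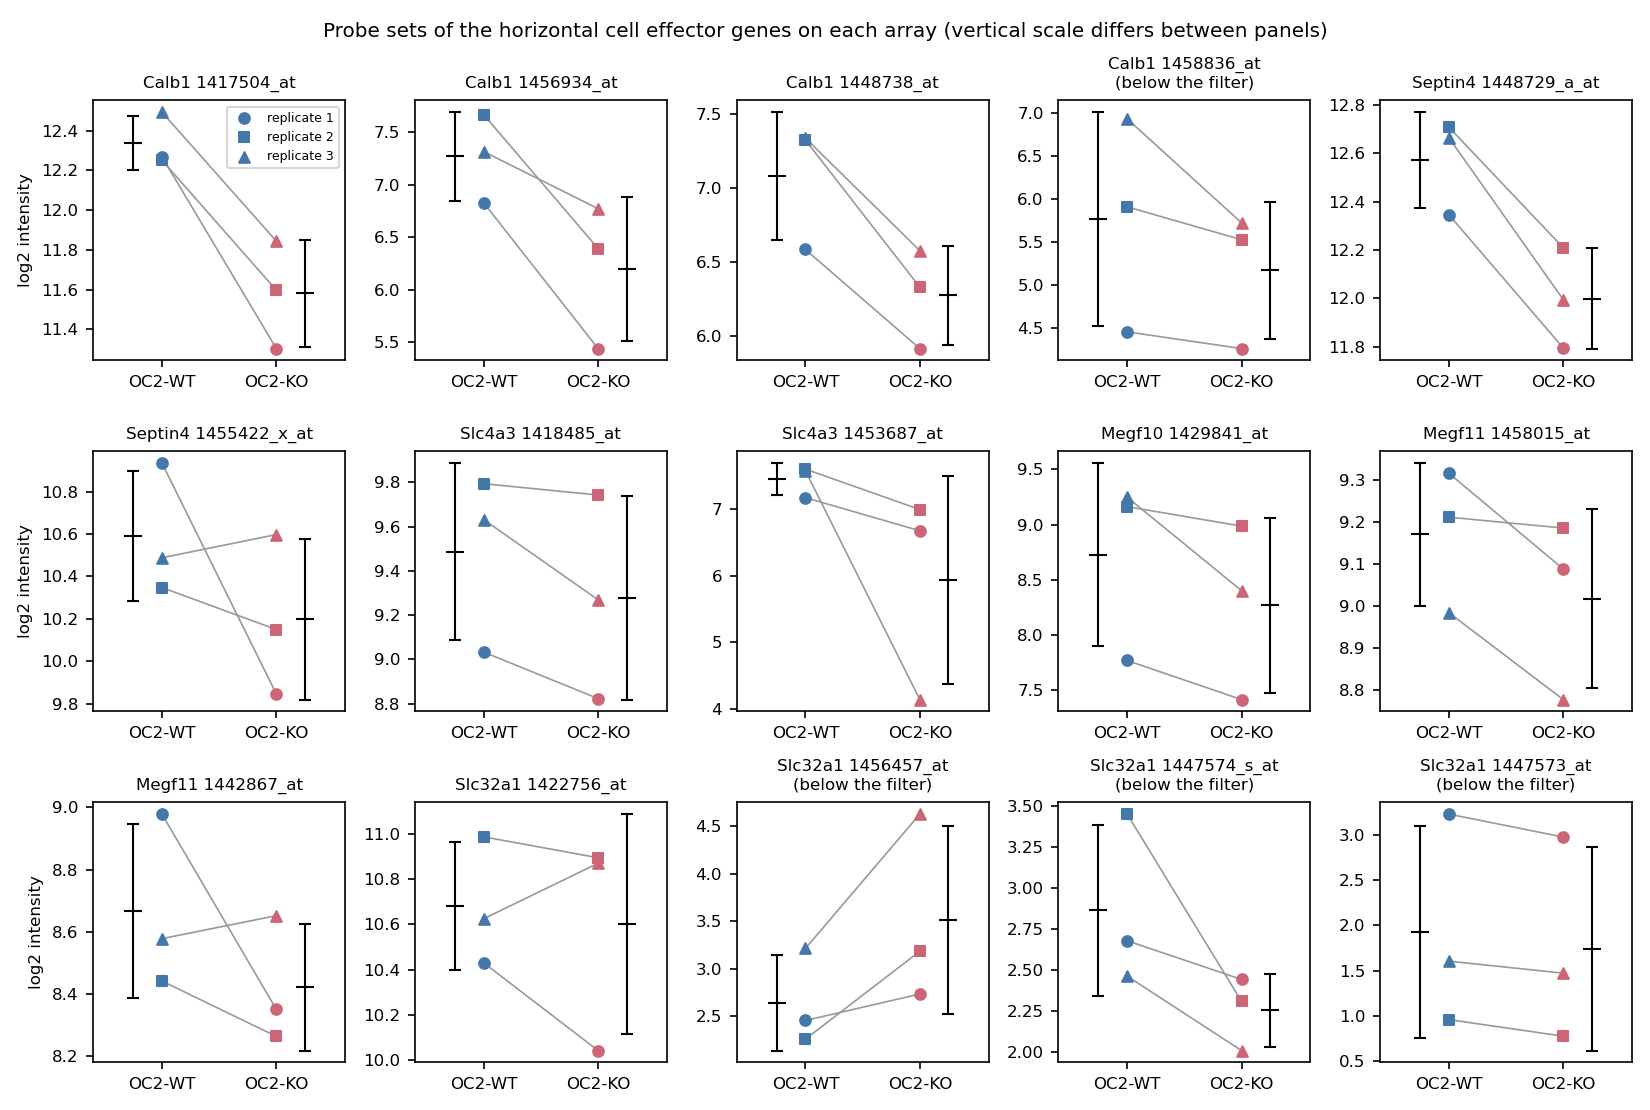
Log2 intensity (vertical axis, with its own scale in each panel) of the 15 probe sets on every array, by genotype (horizontal axis). Circles, squares and triangles are replicates 1, 2 and 3, grey lines join arrays of 1 replicate number, and black bars give mean ± SD (n = 3). Calb1 1417504_at reads 12.25 to 12.49 in OC2-WT and 11.30 to 11.84 in OC2-KO.

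Calb1 encodes a cytosolic protein that binds calcium through EF hands and buffers it in horizontal and amacrine cells. For its brightest probe set, 1417504_at, wildtype arrays 1, 2 and 3 read 12.27, 12.25 and 12.49, and knockout arrays 11.30, 11.60 and 11.84. All knockout readings were below all wildtype readings, and within pairs 1, 2 and 3 the gap was -0.97, -0.65 and -0.65. The log2 difference was -0.76 ± 0.23 (SE), with a 95% interval from -1.29 to -0.22 (limma, unadjusted p = 0.0122, adjusted p = 1.00). Of the probe sets tested, 1.23% had a more negative difference, and by p this one ranked 48. Over the settings tried the difference stayed between -0.89 and -0.62 and the adjusted p between 0.355 and 1.00. The unadjusted p was under 0.05 in 21 of 23 settings, and in limma it was 0.0598 without pair 1 and 0.0645 without pair 2. With replicate number as a block the SE was 0.16 (limma, unadjusted p = 0.00418), without passing adjustment. That fit counted 887 of the 21176 probe sets tested at an unadjusted p of 0.05.

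The dimmer Calb1 probe sets were also lower on average. For 1456934_at the wildtype arrays read 6.83, 7.67 and 7.32 and the knockout arrays 5.44, 6.39 and 6.77, a log2 difference of -1.07 ± 0.39 (SE). For 1448738_at the readings were 6.59, 7.32 and 7.34 against 5.92, 6.33 and 6.58, which differ by -0.81 ± 0.30 (SE). On both, the highest knockout reading came close to the lowest wildtype reading without crossing it. Their unadjusted p was under 0.05 in 12 of 21 settings for 1456934_at and 9 of 21 for 1448738_at. For 1458836_at, below the filter, the readings were 4.46, 5.91 and 6.93 against 4.27, 5.53 and 5.72, and here the genotypes overlapped although every pair was lower. The fitted 95% intervals of the 3 tested probe sets overlapped, and whether the sizes of their differences are unlike was not tested.

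Septin4 encodes a GTPase that assembles into filaments under the plasma membrane. For its brightest probe set, 1448729_a_at, wildtype arrays read 12.35, 12.71 and 12.66 and knockout arrays 11.79, 12.21 and 11.99. There was no overlap, and the pairs were alike at -0.55, -0.50 and -0.67. The log2 difference was -0.57 ± 0.22 (SE), with a 95% interval from -1.10 to -0.05 (limma, unadjusted p = 0.0366, adjusted p = 1.00). When each array or pair was left out in turn, the unadjusted p of limma stayed under 0.05 in 2 of 9 cases, those that dropped wildtype array 1 or knockout array 2. In the other 7 it lay between 0.0708 and 0.135, and with no filter it was 0.0848. With replicate number as a block the SE was 0.15 (limma, unadjusted p = 0.0108), without passing adjustment.

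The other Septin4 probe set, 1455422_x_at, carries the suffix used by Affymetrix for probes that may also bind other transcripts. Its wildtype arrays read 10.93, 10.35 and 10.49 and its knockout arrays 9.85, 10.15 and 10.60. The genotypes overlapped, and the knockout was the higher array of pair 3. The log2 difference was -0.39 ± 0.28 (SE), and -0.04 without pair 1.

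Slc4a3 encodes the anion exchanger AE3, which trades chloride for bicarbonate. For 1418485_at, the brighter of its probe sets, wildtype arrays read 9.03, 9.79 and 9.63 and knockout arrays 8.82, 9.74 and 9.27. Replicate 1 was lowest in both genotypes, and the arrays of either genotype lay further apart than the genotypes did. The log2 difference was -0.21 ± 0.32 (SE), with a 95% interval from -0.97 to 0.55 (limma, unadjusted p = 0.539), and it was 0.020 without OC2-KO replicate 1. With replicate number as a block the SE was 0.16 (limma, unadjusted p = 0.242).

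For the dimmer Slc4a3 probe set, 1453687_at, wildtype arrays read 7.17, 7.60 and 7.58 and knockout arrays 6.67, 6.99 and 4.14. The genotypes did not overlap, but OC2-KO replicate 3, whose Actb 3' to 5' difference was 3.39, stood far below the rest. The log2 difference of -1.51 ± 0.71 (SE) was -0.55 without pair 3 and -0.89 when values under 6 were set to 6. OC2-WT replicate 3, with an Actb difference of 2.95, was not low. The part of RNA quality in this value was not tested.

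Megf10 and Megf11 encode transmembrane receptors with many EGF repeats, through which neighbouring horizontal cells keep their distance in the mosaic. For Megf10 1429841_at wildtype arrays read 7.77, 9.16 and 9.25 and knockout arrays 7.42, 8.99 and 8.40. Pair 1 held the lowest array of each genotype, and the range of 1.48 among wildtype arrays exceeded the genotype difference. That log2 difference was -0.46 ± 0.53 (SE), with a 95% interval from -1.70 to 0.79 (limma, unadjusted p = 0.414). It was -0.35, -0.18 and -0.85 in pairs 1, 2 and 3. Much of the spread was shared within pairs, and with replicate number as a block the SE was 0.19 (limma, unadjusted p = 0.0571). Megf10 is the 1 gene of the 6 on the chromosome that carries Onecut2, with 56 protein-coding genes between them in GRCm38.p6. Alleles flanking a targeted locus can be inherited with it, and their part in the Megf10 value cannot be told apart from that of the null allele.

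Megf11 was read by probe sets that varied less between arrays. For 1458015_at wildtype arrays read 9.32, 9.21 and 8.98 and knockout arrays 9.09, 9.19 and 8.78, which differ by -0.15 ± 0.22 (SE) on the log2 scale. For 1442867_at they read 8.98, 8.44 and 8.58 against 8.35, 8.26 and 8.65, which differ by -0.24 ± 0.24 (SE). Both showed overlapping genotypes, and the second was higher in the knockout in pair 3. The 95% intervals, from -0.67 to 0.36 and from -0.81 to 0.32, include both 0 and the Septin4 difference.

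Slc32a1 encodes VGAT, which loads GABA and glycine into synaptic vesicles. Of its 4 probe sets 1422756_at alone was above the filter, and there wildtype arrays read 10.43, 10.99 and 10.62 and knockout arrays 10.04, 10.89 and 10.87. The genotypes were interleaved, and the pairs differed by -0.39, -0.09 and 0.25. The log2 difference was -0.08 ± 0.31 (SE), with a 95% interval from -0.80 to 0.64, and it was 0.20 without OC2-KO replicate 1. The remaining probe sets lay between 0.77 and 4.63, at the dim end of the array, and differed by 0.87, -0.61 and -0.19.

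**Figure D2:**
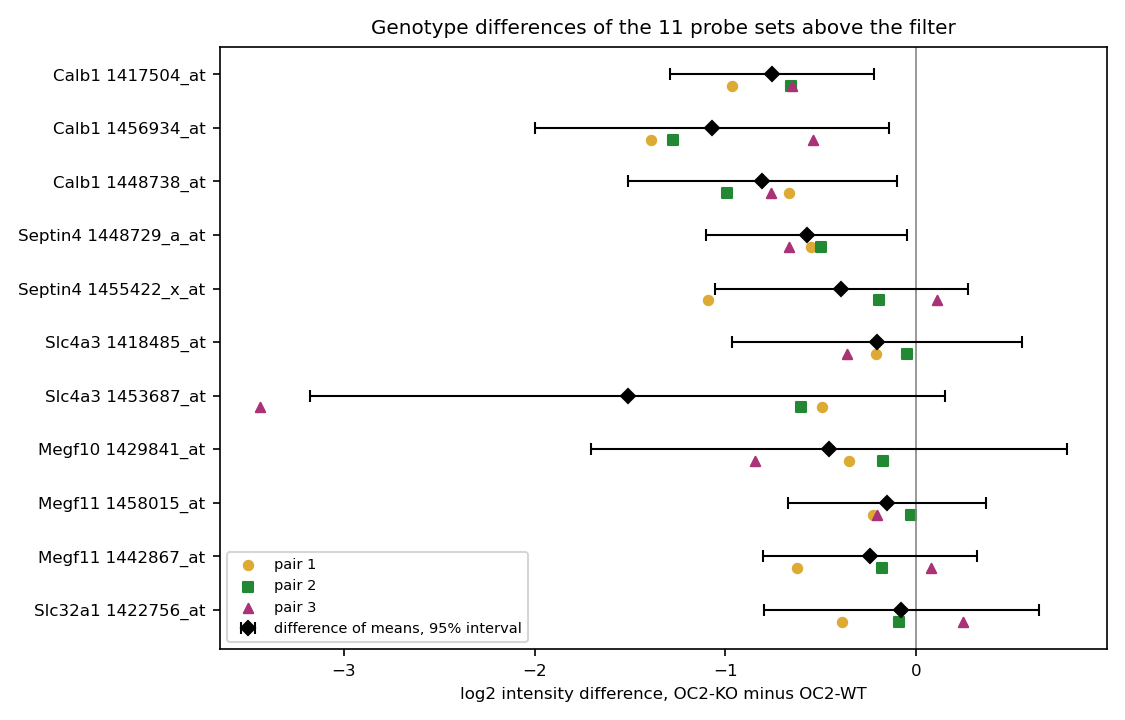
Log2 intensity difference, OC2-KO minus OC2-WT (horizontal axis), of the 11 probe sets above the filter (vertical axis). Diamonds and bars are the difference of means with its 95% interval from limma, and coloured points are the 3 pairs. The intervals of 3 Calb1 probe sets and 1 Septin4 probe set lie below 0, and the other 7 cross it.

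Set against the spread of arrays, the genotype difference was larger than the range within either genotype for 3 of the 11 probe sets tested, Calb1 1417504_at and 1448738_at and Septin4 1448729_a_at. Of all probe sets tested, 0.567% were lower by this measure. Calb1 1448738_at passed the filter through OC2-WT alone and so had to be lower, and the study had singled out both genes on these arrays. Over the 11 tested the median log2 difference was -0.46, and over the 8 whose mean passed in both genotypes it was -0.32, while that of all probe sets tested was -0.01. OC2-KO replicate 1 was the lowest knockout array for 8 of the 11 and for 37.9% of all probe sets tested. OC2-WT replicate 1 was the lowest wildtype array for 7 of the 11 and for 36.3% of all.

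The genes whose log2 intensities ran most like each effector gene over the 6 arrays are given as a description, since arrays of a pair vary together. Calb1 1417504_at ran most like Txnl1 (Pearson r = 0.987), a thioredoxin-like gene, Minar2 (0.979) and Nol6 (0.976). These 3 had log2 differences of -0.62, -3.24 and -0.58 between genotypes, so genotype enters these correlations too. The part of alleles flanking Onecut2 in them was not tested. Septin4 1448729_a_at ran most like Tef (0.986), a leucine zipper factor, Nup155 (0.976), a nuclear pore subunit, and Id2 (0.975), an inhibitor of helix-loop-helix factors. For Calb1 and Septin4, 11 and 21 probe sets exceeded an r of 0.95. Slc4a3 and Megf10 had 305 and 352 such probe sets, led by the glutamate receptor gene Grm7 (0.999) and the kinase gene Hipk2 (0.998). Megf11 and Slc32a1 had 132 and 130, led by Zfp263 (0.999) and Dab2ip (0.997).

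Other genes of horizontal cells were read by their brightest probe set. Of 10 transcription factors of the lineage 5 passed the filter, of which 4 were lower on average and Onecut2, read at its 3' end, was higher. The filter fixed the direction of 2 of them, since Onecut1 passed through OC2-WT alone and Onecut2 through OC2-KO alone, and the 3 that passed in both genotypes were lower. Onecut1, the close relative of Onecut2, read 6.55, 7.61 and 7.93 in wildtype and 2.82, 6.64 and 7.22 in knockout arrays, a log2 difference of -1.80 ± 1.09 (SE). OC2-KO replicate 1 stood far below the other arrays. Tfap2b, shared with amacrine cells, differed by -0.46 ± 0.29 (SE) and Prox1 by -0.42 ± 0.34 (SE). Lhx1, the LIM homeodomain factor of these cells, was below the filter at 6.40, 7.03 and 6.15 against 5.93, 3.09 and 5.67.

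Of 6 structural genes 5 passed the filter, and 4 of these were lower on average, with a median log2 difference of -0.08. The neurofilament genes Nefh, Nefm and Nefl differed by -0.25, -0.17 and 0.03, Vim by -0.08 and Tpm3 by -0.02, all with overlapping genotypes. Readings of whole retina do not show which cells these transcripts came from, so they give no level for horizontal cells alone. Gja10, the gap junction protein that couples horizontal cells, was below the filter.

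Relatives of the effector genes gave no call in limma, either adjusted or at an unadjusted p of 0.05. For comparison, of 11065 genes tested 51.2% were lower, the median log2 difference was -0.005 and 0.985% passed that unadjusted level. Among 15 further EF-hand calcium-binding proteins 10 were lower, with a median of -0.08. Cabp5, a bipolar cell protein, differed by -0.57 ± 0.33 (SE) and was lower in 3 of 3 pairs. Calb2, which encodes calretinin, read 13.48, 13.49 and 13.49 in wildtype and 13.46, 13.50 and 13.25 in knockout arrays. Among 8 other septins 5 were lower, with a median of -0.12. Septin7, the core subunit of septin filaments, had means of 13.22 ± 0.04 and 13.04 ± 0.05 (SD, n = 3) with no overlap, while Septin9 differed by 0.44 ± 0.30 (SE).

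Among 5 other SLC4 bicarbonate transporters 3 were lower, with a median log2 difference of -0.22, from -0.28 for Slc4a4 to 0.22 for Slc4a8. Among 6 relatives of the MEGF receptors and engulfment genes 3 were lower, with a median of 0.01. Pear1, which also has EGF repeats, differed by 0.84 ± 0.78 (SE) but passed the filter through OC2-KO alone, and without it the median was -0.02. Among 7 genes that make or carry GABA and glycine 4 were lower, with a median of -0.10. Slc6a5, the neuronal glycine transporter, differed by -0.28 ± 0.26 (SE), and the GABA-synthesising enzymes Gad1 and Gad2 by -0.10 ± 0.29 and 0.01 ± 0.30 (SE).

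**Figure D3:**
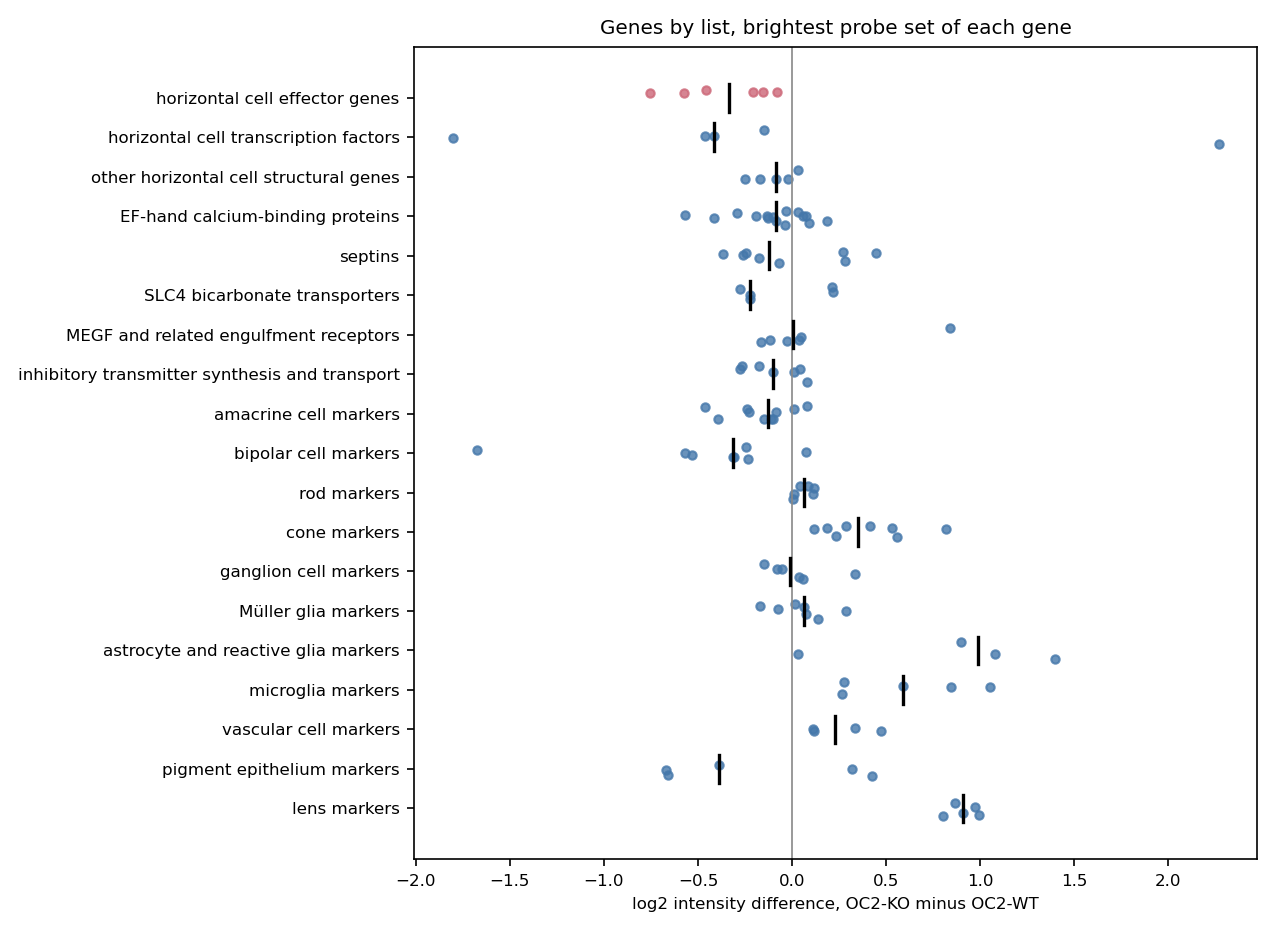
Log2 intensity difference, OC2-KO minus OC2-WT (horizontal axis), of genes above the filter in the 6 effector genes (red) and in 18 companion lists (vertical axis), with 1 point per gene by its brightest probe set and a black line at each median. The effector genes lie between -0.76 and -0.08, with a median of -0.33.

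Markers of other retinal cells were read beside these genes, some of which they share. Of 10 amacrine markers 8 were lower, with a median log2 difference of -0.13, and their intensities summed to 38845 to 40907 in wildtype and 31584 to 39256 in knockout arrays. Th and Slc18a3 passed the filter through OC2-WT alone and so had to be lower, and of the other 8 markers 6 were lower, with a median of -0.10. Chat, of starburst amacrine cells, was below the filter in both genotypes. Of 8 bipolar markers 7 were lower, with a median of -0.31 and sums of 23806 to 29673 against 18537 to 24102. Without Gpr179, which passed through OC2-WT alone, 6 of 7 were lower, with a median of -0.31. All 8 cone markers were higher, with a median of 0.35 and sums of 45963 to 71987 against 50777 to 80868. Rod, ganglion cell and Müller glia markers had medians of 0.06, -0.01 and 0.06.

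The 4 reactive glia and 5 microglia markers above the filter were all higher, with median log2 differences of 0.99 and 0.59. Lcn2 and Tmem119 passed through OC2-KO alone and so had to be higher, and without them 3 of 3 and 4 of 4 were higher, with medians of 1.08 and 0.43. The summed intensities, both genes included, were 770 to 1032 in wildtype and 1177 to 2100 in knockout arrays for reactive glia. For microglia they were 1246 to 1897 and 1991 to 2575. The filter fixed the direction of 1 gene in each sum, and the study had named the reactive glia genes Gfap and Cd44 as higher on these same arrays. The lack of overlap is therefore not independent evidence. The 4 vascular markers had a median of 0.23. The 5 lens markers had a median of 0.91 and sums of 5104 to 57985 against 31971 to 48505, and the 5 pigment epithelium markers a median of -0.39 and sums of 21292 to 75998 against 12564 to 62339. OC2-WT replicate 3 was the array lowest in lens and highest in pigment epithelium transcripts. The part of these cells in the values of the 6 genes was not tested.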

How the data were processed

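The authors amplified and biotin-labelled total retinal RNA and hybridised it to 6 Affymetrix arrays. They deposited linear intensity values for 45101 probe sets, made with MAS5 (version not given in the sources used here). Each array has a 2% trimmed mean of 500, so a shift common to all genes cannot be seen. The number of arrays limits the precision.

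Groups came from the sample titles, and gene symbols from the platform annotation. After log2 transformation and removal of 64 control probe sets, those with a mean above 7 in either genotype were tested, as the study's methods filter them, which left 21176. The genotypes were fitted with lmFit and eBayes (limma 3.58.1, R 4.3.3; two-sided, Benjamini-Hochberg over all probe sets tested, threshold 0.05). The script was tested on simulated data.

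Every probe set of the 6 genes is given, with the 3 genes most alike to each, and up to 4 genes per list by smallest p plus known horizontal cell genes. Calb2, Septin7, Gad2, Chat and Sag were named after their values were seen. The genes, lists and tests were chosen with earlier results of these data known.

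Replicate numbers were taken as pairs because deviations from genotype means correlated at 0.576, 0.590 and 0.585 for equal numbers, against -0.429 to -0.135 for unequal ones. The labels do not say what a number marks.

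Alternatives changed the filter, the scaling between arrays, the variance model, array weights, the block, a floor at 6, the test, the summary of probe sets per gene and the arrays or pairs included. A filter on the mean of all arrays was chosen after seeing the data.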

Additional observations from a re-analysis of the deposited data

How the results depend on the processing

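No alternative brought a probe set of the 6 genes past the adjusted threshold. Apart from the block with an intensity trend, none brought any probe set on the array past it, so an unchanged side says little. Of 236 alternative values for the 11 tested probe sets, 232 kept their direction and side of this threshold and 4 changed sign. Those were Slc4a3 1418485_at without OC2-KO replicate 1 (0.020), and Slc32a1 1422756_at without OC2-WT replicate 2 (0.07), without OC2-KO replicate 1 (0.20) and without pair 1 (0.08). With arrays or pairs left out, the first ran from -0.44 to 0.020 and the second from -0.24 to 0.20. The count at an unadjusted p of 0.05, which was 4, was 1 with no filter. It was 2 with the filter at 8, the filter on the mean of all arrays, an intensity trend, a robust trend, the methods' t-test, or that test with unequal variances. It ran from 0 (without pair 2) to 4 when an array or pair was left out. It was 1 without OC2-WT replicate 2, OC2-WT replicate 3 or OC2-KO replicate 1, and 2 without pair 1 or pair 3. The number of tested probe sets without overlap, which was 5, was 2 with the filter at 8 or on the mean of all arrays, where fewer were tested. It ran from 5 to 8 when an array or pair was left out, with 8 without pair 3. A lack of overlap is easier to reach with fewer arrays, and no share over all probe sets was computed for those settings. The median difference of -0.46 ran from -0.69 without OC2-WT replicate 1 to -0.22 without OC2-KO replicate 1. With the replicate block the count at the unadjusted level was 5, Slc4a3 1453687_at being the addition, and no adjusted call changed. Array weights and the floor at 6 also gave a count of 5. With the block and an intensity trend 6 of all probe sets tested passed adjustment, none of them from the 6 genes. Averaged over its probe sets, Slc4a3 differed by -0.86 rather than -0.21. Over all probe sets the unadjusted count of 209 was 887 with the block, 1144 with no filter, 127 with the filter at 8, 436 with array weights and 499 without OC2-KO replicate 2. Where not stated, the cause was not tested. The dim probe sets of Calb1, Slc4a3 and Slc32a1 averaged below 7 over the arrays, and the part of background in them was not tested.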
